A study of Mus musculus with 12 samples.

Results

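The response that GW3965 and troglitazone had in common was read from the 6 libraries labelled IMQ/GW3965 or IMQ/Troglitazone, set against the 3 libraries labelled IMQ/Veh, so that 9 of the 12 libraries of the study entered the comparison. The groups were taken from the sample titles. The pooled agonist effect of a gene is the mean of its log2 fold changes with GW3965 and with troglitazone, each against IMQ/Veh. The study measured mRNA in ear skin of C57BL/6 mice aged 8 to 12 weeks, in 4 groups of 3 libraries, all titled day 6. In the 3 groups with IMQ in the title, the dorsal side of the ears received 20.8 mg of Aldara cream with 5% imiquimod every day. Skin was collected 1 day after the final application. IMQ/GW3965 mice received GW3965 at 20 mg/kg, and IMQ/Troglitazone mice troglitazone at 150 mg/kg, by injection into the peritoneum once daily from day 3. IMQ/Veh mice received the solvent DMSO, and all groups carry the C57BL/6 genotype with no other allele named. The fourth group, UTX/Veh, serves here only as the level without imiquimod in its title; what UTX stands for is not stated. A number after a group's name is its replicate number. The labels do not state that the replicates came from separate mice, so each p-value rests on a spread among libraries that may be technical.

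GW3965 activates the liver X receptors (LXR), nuclear receptors that sense oxidised cholesterol and switch on genes of cholesterol export and fatty acid synthesis. Troglitazone activates PPARγ, a nuclear receptor that senses fatty acids and switches on genes of fat uptake and storage. Both receptors bind DNA together with a retinoid X receptor (RXR), both are active in the lipid-producing cells of skin, and both are known to restrain inflammatory genes when a ligand is bound. Imiquimod activates Toll-like receptor 7 and drives a psoriasis-like inflammation of mouse skin in which interleukin-23 and interleukin-17 act on keratinocytes, the cells of the epidermis, which then make chemokines that recruit neutrophils.

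Of 17130 genes tested, 1841 (10.7%) changed under the pooled effect at an edgeR adjusted p under 0.05. Of these, 968 (5.65%) were higher and 873 (5.1%) lower with the agonists. At an unadjusted p under 0.05 there were 5034 genes. The fold was at least 2 for 326 of the higher and 232 of the lower genes. The median log2 fold change of all genes tested was -0.03. In 1328 of the 1841 genes, all 6 agonist libraries lay on 1 side of all 3 IMQ/Veh libraries, which was so for 953 (5.56%, above) and 942 (5.5%, below) of all genes tested. Lipid and late keratinocyte genes are among the higher ones, and cytokine, chemokine, antimicrobial and stress keratin genes among the lower ones, as the plot of list members shows.

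The count of changed genes depended on single libraries. It was 328 without IMQ/Veh 1, 4636 without IMQ/Veh 3, 877 without IMQ/GW3965 1, 1186 without IMQ/GW3965 2, 1205 without IMQ/Troglitazone 1, 1094 without IMQ/Troglitazone 3 and 1223 without IMQ/Veh 2. All 1841 genes kept their sign in each of those fits. IMQ/Veh 3 stood apart: on the first principal component of the 9 libraries it was at -10.2, while IMQ/Veh 1 and 2 were at -59.1 and -58.7 and the 6 agonist libraries between 3.10 and 41.0. Total expected counts ranged from 18242074 to 25641602 per library, and IMQ/GW3965 3 had 11.6% of its counts in the single feature ENSMUSG00000119584. Without that feature 1792 genes changed. Each deposited file also carries an unexplained tag, L001 or L009, possibly a sequencing lane, which is L009 in 2 of 3 IMQ/Veh and in 2 of 6 agonist libraries. Within L001 alone 2360 genes changed and within L009 alone 25, with 1 and 2 IMQ/Veh libraries respectively, both fits chosen after seeing the data. The single IMQ/Veh library of L001 was assumed to vary like the other groups. With the tag as a term in the fit, 1035 genes changed, and 26 of the 101 named genes called no longer passed. Among the 26 are Krt14, Areg, Arg1, Flt3, Cd207, Tpsab1, Oas2, Hbb-bt, Ugcg, Dhcr7, Thrsp, Plin4, Chad, Cldn5, Ibsp and Doc2b. Keratinocyte identity was plain in all 9 libraries: the lowest of the values of Krt5, Krt14, Krt1 and Krt10 was 6742 CPM (counts scaled by library size). Against UTX/Veh, IMQ/Veh differed in 10597 genes (61.9%) and the agonist libraries in 9473 (55.3%), 2 comparisons that share UTX/Veh.

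**Figure D1:**
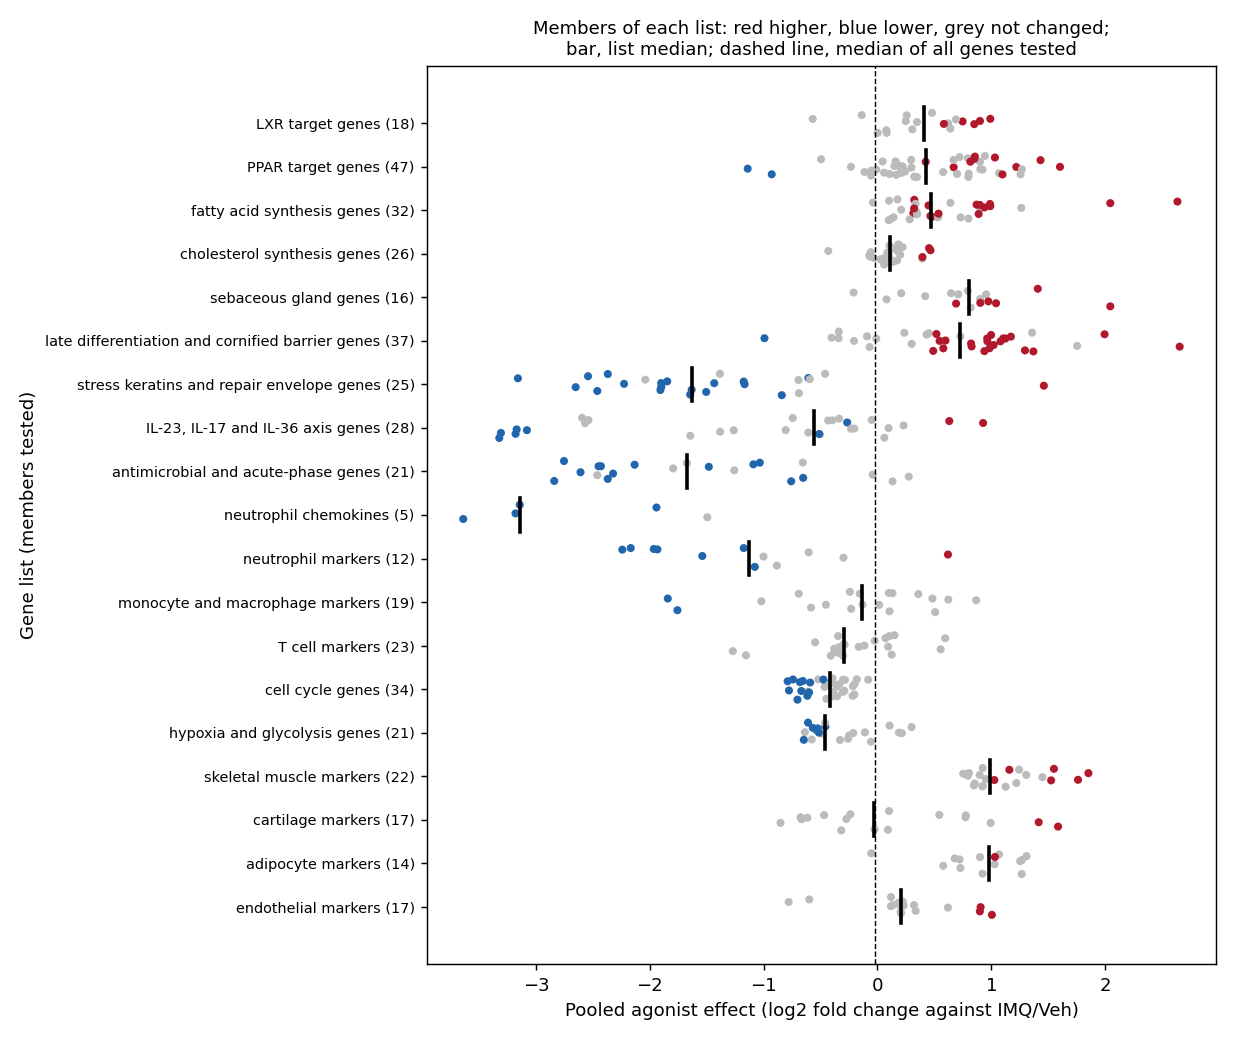
Pooled agonist effect (log2 fold change against IMQ/Veh, x axis) of the tested members of 19 gene lists (y axis, number tested in brackets). Each point is a gene, red if higher, blue if lower and grey if not changed at an edgeR adjusted p under 0.05; black bars are list medians and the dashed line is the median of all genes, at -0.03. Fatty acid synthesis and late differentiation genes lie mostly to the right, and stress keratin, antimicrobial and neutrophil chemokine genes to the left.

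Promoters are shown for 3 raised lipid genes and 2 lowered inflammatory genes, so that the letters in front of the genes that moved can be read beside their values. They are the changed members with the lowest p, of the LXR, fatty acid and cholesterol lists and of the stress keratin, cytokine and antimicrobial lists, whose promoter held a motif other than the single receptor half-site. Each run is the 250 bases before the RefSeq start on GRCm38.p6, 5′ to 3′ on the strand of the gene, with every match to the motifs searched, other than the half-site, in capitals. Capitals mark CCAAT boxes (CCAAT, or ATTGG on the opposite strand), bound by NF-Y, AP-1 sites (TGANTCA) and TATA boxes (TATAAA).
Srebf1, chr11:60222582-60222831, minus strand: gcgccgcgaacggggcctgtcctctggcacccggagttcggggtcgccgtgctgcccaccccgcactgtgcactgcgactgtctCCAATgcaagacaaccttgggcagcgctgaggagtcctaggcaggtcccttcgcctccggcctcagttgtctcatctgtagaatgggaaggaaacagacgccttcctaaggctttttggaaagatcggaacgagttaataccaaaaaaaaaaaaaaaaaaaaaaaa
Mylip, chr13:45389492-45389741, plus strand: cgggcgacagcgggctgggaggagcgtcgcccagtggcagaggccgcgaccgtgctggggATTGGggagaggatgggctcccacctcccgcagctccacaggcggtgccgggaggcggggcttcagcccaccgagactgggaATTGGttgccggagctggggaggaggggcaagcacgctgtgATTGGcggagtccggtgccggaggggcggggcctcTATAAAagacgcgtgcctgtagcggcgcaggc
Fasn, chr11:120824548-120824797, minus strand: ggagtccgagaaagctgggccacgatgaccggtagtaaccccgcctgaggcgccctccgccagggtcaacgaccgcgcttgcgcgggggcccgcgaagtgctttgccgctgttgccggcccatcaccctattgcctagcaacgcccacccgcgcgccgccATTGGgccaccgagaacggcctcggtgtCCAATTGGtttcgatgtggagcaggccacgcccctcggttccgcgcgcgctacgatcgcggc
Stfa2, chr16:36408364-36408613, minus strand: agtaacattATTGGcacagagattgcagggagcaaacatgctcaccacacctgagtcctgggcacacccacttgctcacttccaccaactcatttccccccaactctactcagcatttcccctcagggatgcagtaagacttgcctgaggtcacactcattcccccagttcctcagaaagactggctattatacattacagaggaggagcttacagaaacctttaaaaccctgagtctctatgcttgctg
Sprr2k, chr3:92432332-92432581, plus strand: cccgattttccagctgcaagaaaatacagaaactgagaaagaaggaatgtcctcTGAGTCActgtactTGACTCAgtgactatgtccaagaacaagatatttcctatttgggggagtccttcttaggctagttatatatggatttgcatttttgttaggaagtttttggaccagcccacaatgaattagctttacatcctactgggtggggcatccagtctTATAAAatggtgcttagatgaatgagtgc
The Stfa2 window runs 94 bases past the GENCODE start of that gene, so its last 94 printed bases lie inside the gene by that annotation. For the other 4 windows the RefSeq and GENCODE starts are the same. RefSeq held a window for 12223 of the 17130 tested genes. On either strand, the receptor half-site AGGTCA was in 93 of 734 windows of higher genes (12.7%), 78 of 656 of lower genes (11.9%) and 10.9% of all windows. The exact direct repeat of that half-site with 4 bases between, the form LXR binds, was in 0 of 12223 windows. The PPAR form, with 1 base between, was in 7 of 12223. CCAAT boxes stood in 34.3% of higher, 34.8% of lower and 35.7% of all windows. They stood in 14 of 26 fatty acid synthesis and 16 of 18 cholesterol synthesis genes with a window. AP-1 sites, the motif of Fos and Jun proteins, were in 9 of 19 windows of stress keratin and repair envelope genes and 4.96% of all windows. They were also in 6 of 30 windows of late differentiation genes, and in 8.04% of higher and 7.16% of lower genes. The Sprr2 members of the stress keratin list are copies of each other and not independent. C/EBP sites (TTGCNNAA) were in 9 of 16 windows of antimicrobial genes, 7 of 30 of late differentiation genes and 7.85% of all. NF-kB sites were in 2.13% of lower, 0.954% of higher and 1.51% of all windows. These shares are descriptions and were not tested.

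LXR target genes rose with both agonists pooled in 5 of the 18 members tested, and none fell, beside 5.65% higher and 5.1% lower of all genes. Srebf1 (ENSMUSG00000020538, chromosome 11, 60199089 to 60222581), the transcription factor that drives fatty acid synthesis, was at 111, 159 and 123 CPM in IMQ/Veh, 311, 347 and 265 in IMQ/GW3965 and 219, 192 and 172 in IMQ/Troglitazone (log2 0.90 ± 0.13, edgeR adjusted p = 0.004). Apoe (ENSMUSG00000002985, chromosome 7, 19696109 to 19699188), which carries cholesterol on lipoproteins, was at 930.2, 1122 and 957 CPM with vehicle, 2049, 1945 and 2008 with GW3965 and 1442, 1252 and 1561 with troglitazone (log2 0.75 ± 0.10, edgeR adjusted p = 0.00316). For both genes every agonist library lay above every IMQ/Veh library, and the GW3965 libraries lay above the troglitazone libraries. In UTX/Veh, Srebf1 was at 263, 255 and 239 CPM and Apoe at 1600.3, 1585 and 1776.

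Mylip, a ubiquitin ligase, was at 30.4, 32.5 and 33.6 CPM in IMQ/Veh, 59.7, 48.4 and 53.2 in IMQ/GW3965 and 41.2, 36.8 and 51.4 in IMQ/Troglitazone (log2 0.58 ± 0.11, edgeR adjusted p = 0.0115). All 6 agonist libraries lay above the IMQ/Veh libraries. Scd1, the desaturase that makes oleic acid, was at 1016, 2140.4 and 2183 CPM with vehicle, 5405, 3985 and 4212 with GW3965 and 2613, 3081 and 2589 with troglitazone (log2 0.99 ± 0.22, edgeR adjusted p = 0.019). The lowest Scd1 value among the agonist libraries was above the highest IMQ/Veh value. Lpl, which frees fatty acids from lipoproteins, was the fifth raised member (log2 0.85 ± 0.24, edgeR adjusted p = 0.0417). The cholesterol exporters Abca1 (88.8, 56.0 and 101 CPM in IMQ/Veh, 119, 179 and 124 with GW3965, 118, 86.5 and 134 with troglitazone) and Abcg1 (54.2, 35.8 and 52.5 CPM with vehicle, 55.5, 76.8 and 67.4 with GW3965 and 56.6, 42.0 and 46.3 with troglitazone) did not pass the test (log2 0.62 ± 0.21, edgeR adjusted p = 0.0782, and log2 0.26 ± 0.15, edgeR adjusted p = 0.282). The list's median log2 fold change was 0.41, beside -0.03 for all genes. The count of 5 was 3 without IMQ/Veh 1 and 8 without IMQ/Veh 3, and Mylip missed the threshold without IMQ/Veh 1.

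PPAR target genes rose in 10 of 47 members tested and fell in 2, beside 5.65% higher and 5.1% lower of all genes. The count of 2 lowered is near that share, and nothing is read from it. Cd36 (ENSMUSG00000002944, chromosome 5, 17781690 to 17888801), the fatty acid uptake receptor, was at 48.1, 94.4 and 101 CPM in IMQ/Veh, 195, 148 and 179.7 in IMQ/GW3965 and 198, 169 and 247 in IMQ/Troglitazone (log2 1.22 ± 0.21, edgeR adjusted p = 0.00855). Pnpla2, the first lipase of stored fat, was at 54.5, 54.0 and 90.5 CPM with vehicle, 148, 135 and 118 with GW3965 and 155, 112 and 185 with troglitazone (log2 1.10 ± 0.20, edgeR adjusted p = 0.00957). In both genes the agonist libraries lay above all IMQ/Veh libraries. Acaa1b, a peroxisomal thiolase (log2 1.43 ± 0.34, edgeR adjusted p = 0.0249), rose as well, and so did Cyp4b1, Plin4, Ehhadh, Lpl and Acadm.

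The members that fell were Fabp5, the fatty acid carrier of epidermis, at 6188, 3792 and 4818 CPM in IMQ/Veh, 2346, 2953 and 3431 in IMQ/GW3965 and 2876, 2117 and 1929 in IMQ/Troglitazone (log2 -0.93 ± 0.17, edgeR adjusted p = 0.0106), and the glycerol kinase gene Gk (log2 -1.14 ± 0.28, edgeR adjusted p = 0.0266). Both lay lower in every agonist library than in any IMQ/Veh library. Textbook targets that did not pass were Angptl4, a lipase inhibitor, at 14.9, 19.2 and 30.8 CPM with vehicle, 15.2, 15.3 and 9.39 with GW3965 and 13.8, 19.2 and 19.8 with troglitazone (log2 -0.50 ± 0.26, edgeR adjusted p = 0.234), and Pdk4, which blocks the use of sugar for energy (log2 0.21 ± 0.60, edgeR adjusted p = 0.845). The lipid droplet coat gene Plin2 (log2 0.67 ± 0.24, edgeR adjusted p = 0.0954) and the adipocyte fatty acid carrier gene Fabp4 (log2 0.92 ± 0.43, edgeR adjusted p = 0.181) did not pass either. Leaving out 1 library moved Pdk4 from log2 0.21 to 1.304 without IMQ/Veh 3 and -0.43 without IMQ/Troglitazone 3, and Fabp4 to 1.57 without IMQ/Veh 3, where it passed (edgeR adjusted p = 0.0202). The list median was 0.42. Of its members, Cd36, Fabp4, Plin1, Plin4, Adipoq and Cidec are also expressed by adipocytes, whose markers are described further on. The count of 10 raised was 2 without IMQ/Veh 1, 4 without IMQ/GW3965 1 and 23 without IMQ/Veh 3, and 5 with the file tag as a term. The count of 2 lowered was 0 without IMQ/Veh 1 and 1 without IMQ/Veh 2, IMQ/Troglitazone 1 or IMQ/Troglitazone 3, and the call of Pnpla2 was lost without IMQ/Veh 1.

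Among 19 receptor and coregulator genes, 1 rose and 1 fell, near the shares of all genes (5.65% higher and 5.1% lower), and nothing is read from that count. Pparg (ENSMUSG00000000440, chromosome 6, 115360951 to 115490399), the receptor of troglitazone, was at 7.52, 8.69 and 10.4 CPM in IMQ/Veh, 17.6, 13.5 and 18.2 in IMQ/GW3965 and 13.2, 13.9 and 12.2 in IMQ/Troglitazone (log2 0.73 ± 0.15, edgeR adjusted p = 0.016). Ppard, the PPAR of keratinocytes that inflammation is known to raise, was at 153, 157 and 118 CPM with vehicle, 78.0, 101 and 90.0 with GW3965 and 106, 112 and 80.7 with troglitazone (log2 -0.60 ± 0.12, edgeR adjusted p = 0.0142). Every agonist library lay above the IMQ/Veh libraries for Pparg and below them for Ppard, and both calls were lost without IMQ/Veh 1. In UTX/Veh, Pparg was at 17.0, 16.8 and 23.0 and Ppard at 43.9, 43.7 and 39.8 CPM. The LXR genes Nr1h3 (log2 0.69 ± 0.27, edgeR adjusted p = 0.12) and Nr1h2 (log2 0.21 ± 0.07, edgeR adjusted p = 0.0566), the RXR gene Rxra (log2 0.03 ± 0.06, edgeR adjusted p = 0.792) and Ppara (log2 0.38 ± 0.25, edgeR adjusted p = 0.326) did not pass the test. The 1 raised became 0 without IMQ/Veh 1, 2 without IMQ/Veh 2 or IMQ/GW3965 3 and 4 without IMQ/Veh 3, and the 1 lowered 0 without IMQ/Veh 1 and 2 without IMQ/Veh 3.

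Fatty acid synthesis genes rose in 15 of 32 members tested, and none fell, beside 5.65% higher and 5.1% lower of all genes. Fasn (ENSMUSG00000025153, chromosome 11, 120805846 to 120824547), the fatty acid synthase, was at 344, 487 and 378 CPM in IMQ/Veh, 833, 677 and 559 in IMQ/GW3965 and 925, 848 and 590.4 in IMQ/Troglitazone (log2 0.87 ± 0.17, edgeR adjusted p = 0.0126). Elovl6, which lengthens palmitate, was at 181, 246 and 211 CPM with vehicle, 466, 422 and 426 with GW3965 and 304, 369 and 388 with troglitazone (log2 0.89 ± 0.14, edgeR adjusted p = 0.00539). In both genes all agonist values were above all IMQ/Veh values. Both acetyl-CoA carboxylases rose, Acaca by log2 0.45 and Acacb by 0.99, together with the citrate lyase Acly (0.32), the acetate activator Acss2 (0.48), the acyltransferase Gpam (0.47) and Pnpla3 (0.94).

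Thrsp (ENSMUSG00000035686, chromosome 7, 97412938 to 97417730), a small protein of lipid-making tissues known to promote fatty acid synthesis, had the largest rise of the list. Thrsp was also among the 8 named genes with the largest rises of all, which were picked only if agonist and IMQ/Veh libraries did not overlap. It was at 1.82, 0.241 and 6.98 CPM in IMQ/Veh, 24.3, 12.99 and 16.7 in IMQ/GW3965 and 32.1, 12.5 and 10.8 in IMQ/Troglitazone (log2 2.64 ± 0.72, edgeR adjusted p = 0.0405). The agonist libraries did not overlap IMQ/Veh, but the call was lost without IMQ/Veh 1, IMQ/Veh 2, IMQ/GW3965 1, IMQ/GW3965 2, IMQ/GW3965 3, IMQ/Troglitazone 1 or IMQ/Troglitazone 3, and its log2 fold change was 4.24 without IMQ/Veh 3. The list median was 0.47. The summed level of the list was 6311 to 8083 CPM in IMQ/Veh, 11588 to 13354 in IMQ/GW3965 and 9194 to 9809.6 in IMQ/Troglitazone, and 10771 to 11466 in UTX/Veh. The count of 15 was 3 without IMQ/Veh 1 and 9 without IMQ/GW3965 1, and Fasn missed the threshold without IMQ/Veh 1.

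**Figure D2:**
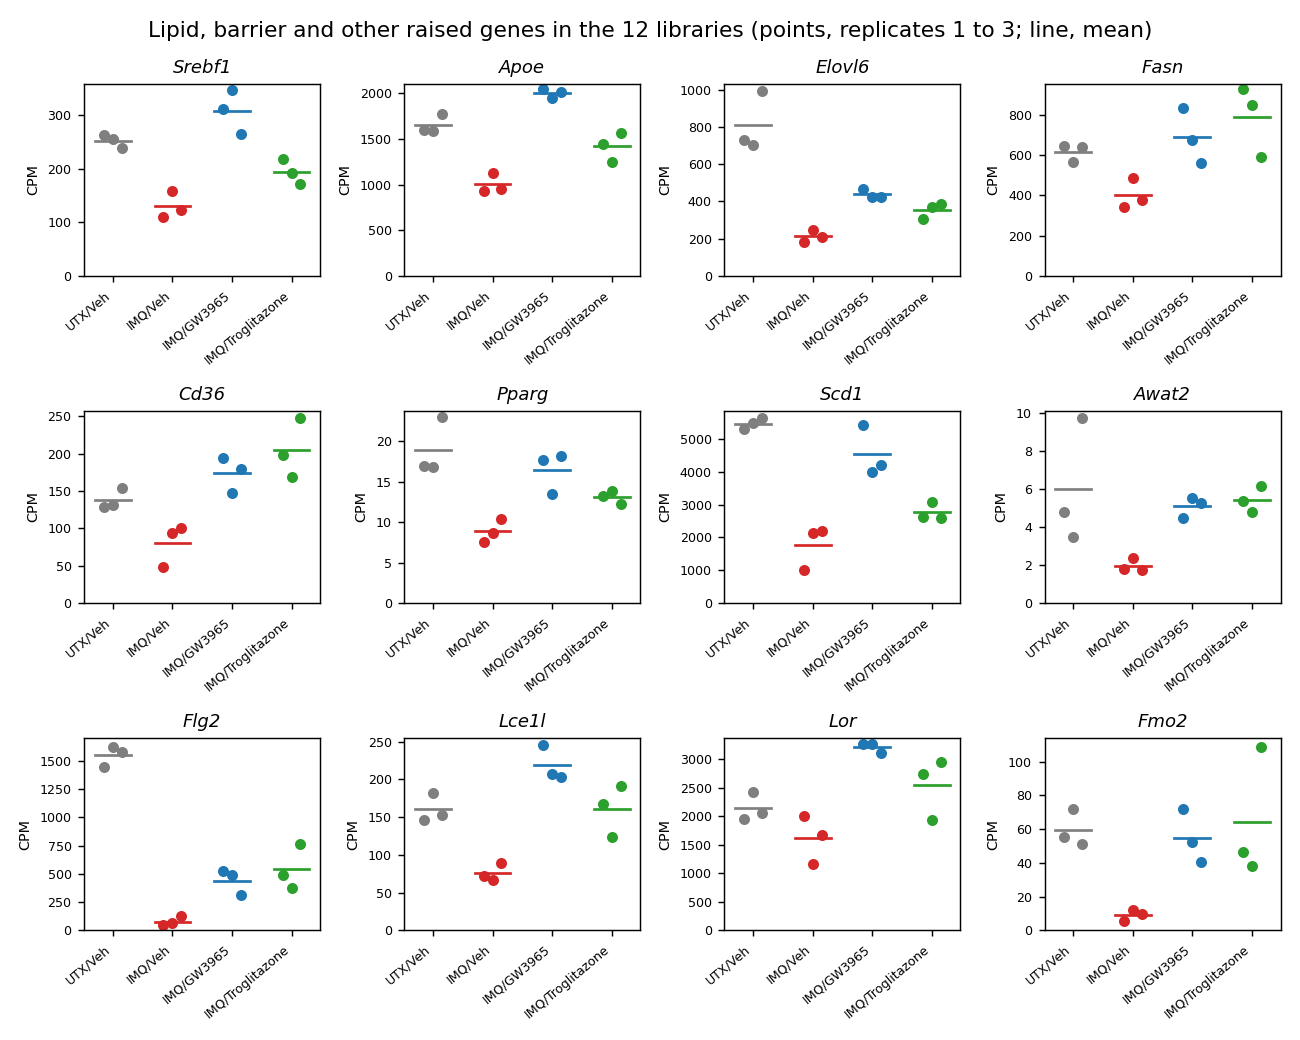
Level of 12 raised genes (y axis, CPM, linear from 0) in the 12 libraries by group (x axis). Points are replicates 1 to 3 from left to right and lines are group means. In Flg2, Fmo2, Srebf1 and Elovl6 all 6 agonist libraries lie above the 3 IMQ/Veh libraries, and in Lor 1 troglitazone library lies among the IMQ/Veh values. For Flg2 and Fmo2 the lack of overlap was a condition for being picked among the largest named rises.

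Of 26 cholesterol synthesis genes tested, 3 rose and none fell, beside 5.65% higher and 5.1% lower of all genes, with a median of 0.11. Among the 3 were Insig1, a brake on sterol synthesis (log2 0.45 ± 0.10, edgeR adjusted p = 0.0191), and the reductase Dhcr7 (log2 0.40 ± 0.11, edgeR adjusted p = 0.0382). In both, agonist and IMQ/Veh values overlapped, and Sqle (log2 0.09) and Hmgcs1 (0.20) did not pass. The count of 3 was 1 without IMQ/Veh 1, IMQ/GW3965 1, IMQ/GW3965 2, IMQ/GW3965 3, IMQ/Troglitazone 1 or IMQ/Troglitazone 3, and 1 with the file tag as a term.

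Sebaceous gland genes rose in 6 of 16 members tested, beside 5.65% of all genes, with none lower and a median of 0.81. Soat1, which esterifies cholesterol, was at 80.3, 145 and 104 CPM in IMQ/Veh, 273, 235 and 224 in IMQ/GW3965 and 187, 166 and 222 in IMQ/Troglitazone (log2 0.97 ± 0.16, edgeR adjusted p = 0.00717). Awat2, which makes wax esters, was at 1.82, 2.37 and 1.73 CPM with vehicle, 4.48, 5.56 and 5.27 with GW3965 and 5.38, 4.80 and 6.20 with troglitazone (log2 1.41 ± 0.30, edgeR adjusted p = 0.0174), and Far2, which makes their fatty alcohols, at 66.6, 162 and 93.1 CPM with vehicle, 251, 184 and 214 with GW3965 and 218, 193 and 266 with troglitazone (log2 1.04 ± 0.23, edgeR adjusted p = 0.02). For these 3 genes the agonist libraries lay above IMQ/Veh without overlap. Krt79 and Mc5r rose too, by log2 0.69 and 0.90. Scd3, a desaturase named here after its values were seen, was at 5.03, 7.52 and 4.46 CPM with vehicle, 93.9, 80.5 and 48.6 with GW3965 and 8.30, 5.72 and 8.37 with troglitazone (log2 2.05 ± 0.59, edgeR adjusted p = 0.0473). Its troglitazone libraries overlapped IMQ/Veh, and the difference GW3965 minus troglitazone was log2 3.31 ± 0.65 (edgeR adjusted p = 0.0361). Scd3 is a close relative of Scd1, so shared reads could be divided between them. The count of 6 was 1 without IMQ/Veh 1 and 3 without IMQ/GW3965 1, IMQ/Troglitazone 1 or IMQ/Troglitazone 3, and 3 with the file tag as a term; the calls of Awat2 and Far2 were lost without IMQ/Veh 1. In bulk skin, fewer cells of a type and less RNA per cell cannot be told apart, and the same holds for more of either.

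Of 22 tested genes of the ceramide lipids of the skin barrier, 1 rose and 2 fell, beside 5.65% and 5.1% of all genes. The fatty acid transporter gene Slc27a4 rose (log2 0.54 ± 0.10, edgeR adjusted p = 0.0119), while Sptlc2, of the first step of sphingolipid synthesis (log2 -0.38 ± 0.08, edgeR adjusted p = 0.02), and Ugcg, the glucosylceramide synthase (log2 -0.39 ± 0.11, edgeR adjusted p = 0.0444), fell. In each of the 3 all agonist libraries lay on 1 side of all IMQ/Veh libraries. The median was 0.12. Without IMQ/Veh 1 none of the 3 passed. The count of 1 raised was 0 without IMQ/Veh 1 and 3 without IMQ/Veh 2 or IMQ/Troglitazone 2, and the count of 2 lowered was 0 without IMQ/Veh 1 and 1 without IMQ/GW3965 1, IMQ/GW3965 2, IMQ/GW3965 3, IMQ/Troglitazone 1, IMQ/Troglitazone 2 or IMQ/Troglitazone 3, and 1 with the file tag as a term.

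Late differentiation genes, which build the cornified envelope of the outermost skin layer, rose in 21 of 37 members tested and fell in 1. Beside them, 5.65% of all genes were higher and 5.1% lower, and nothing is read from the count of 1 lowered. Flg2 (ENSMUSG00000049133, chromosome 3, 93197278 to 93221391), a filaggrin-like protein of the barrier, was at 44.1, 64.3 and 124 CPM in IMQ/Veh, 523, 488 and 309 in IMQ/GW3965 and 487, 372 and 769 in IMQ/Troglitazone (log2 2.65 ± 0.35, edgeR adjusted p = 0.00316). In UTX/Veh it was at 1444, 1625 and 1578 CPM, above all agonist libraries. No agonist library overlapped the IMQ/Veh libraries in Flg2, which was a condition for being picked among the largest named rises. Of the IMQ/Veh libraries, replicate 3 was the highest. The list stood otherwise than Flg2. Its summed level was 31179.5 to 37390 CPM in UTX/Veh and 50733 to 62003 in IMQ/Veh. With GW3965 the sum was 73184 to 86369.5 CPM, and with troglitazone 72829 to 83300. Against UTX/Veh, IMQ/Veh was higher in 21 of the 37 members and lower in 6.

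Of the Lce1 genes, small late envelope proteins, 12 rose and Lce1l (ENSMUSG00000046676, chromosome 3, 92849949 to 92851286) had the lowest adjusted p. It was at 72.0, 67.4 and 89.8 CPM in IMQ/Veh, 246, 207 and 203 in IMQ/GW3965 and 167, 124 and 191 in IMQ/Troglitazone (log2 1.296 ± 0.15, edgeR adjusted p = 0.00199). Lce1h (log2 1.17 ± 0.15, edgeR adjusted p = 0.00273) and Lce6a (log2 1.37 ± 0.17, edgeR adjusted p = 0.00251) rose as well. The Lce1 genes are near copies among which the authors' counting divides shared reads, so they are not independent. Lor, the main protein of the envelope, was at 2002, 1166 and 1662 CPM with vehicle, 3265, 3262 and 3102 with GW3965 and 2746, 1929 and 2955 with troglitazone (log2 0.83 ± 0.18, edgeR adjusted p = 0.0177); 1 troglitazone library lay below 1 IMQ/Veh library. The early keratin of suprabasal cells, Krt10, rose (log2 0.58 ± 0.12, edgeR adjusted p = 0.0133), and its partner Krt1 did not pass (log2 -0.09 ± 0.25, edgeR adjusted p = 0.841).

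The member that fell was Tgm3, a transglutaminase that cross-links the envelope, at 649, 515 and 520.2 CPM in IMQ/Veh, 221, 345 and 308 in IMQ/GW3965 and 310.4, 313 and 197 in IMQ/Troglitazone (log2 -0.99 ± 0.19, edgeR adjusted p = 0.0123). Filaggrin itself (Flg, log2 0.73 ± 0.27, edgeR adjusted p = 0.102) and involucrin (Ivl, log2 0.45 ± 0.21, edgeR adjusted p = 0.17) did not pass. The list median was 0.73. The number of raised members lay between 18 and 24 in the 9 fits that each left out 1 library. The count of 1 lowered was 0 without IMQ/Veh 1 and 2 without IMQ/Veh 2 or IMQ/Veh 3.

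Stress keratins and repair envelope genes, which keratinocytes switch on in wounds and psoriasis, fell in 18 of 25 members tested and rose in 1. Among all genes 5.1% were lower and 5.65% higher, and nothing is read from the count of 1 raised, which is near that share. Krt6a (ENSMUSG00000058354, chromosome 15, 101689910 to 101694307), the wound keratin, was at 9264, 6775 and 7087 CPM in IMQ/Veh, 2241, 3094 and 2200.0 in IMQ/GW3965 and 3221, 2947 and 1092 in IMQ/Troglitazone (log2 -1.64 ± 0.29, edgeR adjusted p = 0.00872). Its partner Krt16 was at 10675, 7399 and 7654 CPM with vehicle, 2433, 4122 and 3905 with GW3965 and 4262, 3450.1 and 1593 with troglitazone; the agonist libraries all lay below IMQ/Veh, but the gene did not pass the test (log2 -1.38 ± 0.45, edgeR adjusted p = 0.0683). In UTX/Veh, Krt6a was at 67.3, 44.9 and 35.5 CPM and Krt16 at 37.9, 5.48 and 12.9, so every agonist library still lay far above the level without imiquimod.

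Sprr2k, a small proline-rich envelope protein and the lowered gene whose promoter is printed above with 2 AP-1 sites, was at 13.5, 5.51 and 6.61 CPM in IMQ/Veh, 0.588, 2.18 and 0.608 in IMQ/GW3965 and 1.06, 0.970 and 0.369 in IMQ/Troglitazone (log2 -3.16 ± 0.49, edgeR adjusted p = 0.0053). In all, 12 Sprr2 genes fell, one of them the pseudogene Sprr2j-ps, with log2 fold changes of -1.17 (Sprr2h) to -3.16 (Sprr2k). These are near copies, and the counts of single members depend on how shared reads were divided. Krt17 (log2 -1.17 ± 0.26, edgeR adjusted p = 0.0196), Sprr1a (log2 -0.84 ± 0.16, edgeR adjusted p = 0.0113), Lce3a, Lce3b and Lce3c fell too. The member that rose was Sprr4 (log2 1.46 ± 0.24, edgeR adjusted p = 0.00679), at 0.778, 1.45 and 1.42 CPM with vehicle, 3.53, 2.703 and 4.19 with GW3965 and 3.13, 2.86 and 3.86 with troglitazone. The median was -1.63. The count of 18 lowered was 2 without IMQ/Veh 1, and 10 with the file tag as a term; 20 of the 25 members lay lower in every agonist library than in every IMQ/Veh library, where 5.5% of all genes did.

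Basal keratinocyte genes rose in 1 and fell in 2 of 12 members, beside 5.65% higher and 5.1% lower of all genes, and the median was -0.07. Krt14, the keratin of the dividing layer, was at 19525, 13196 and 15715 CPM in IMQ/Veh, 9945, 12383 and 11392 in IMQ/GW3965 and 11210.4, 9627 and 7135 in IMQ/Troglitazone (log2 -0.66 ± 0.16, edgeR adjusted p = 0.0265). Its partner Krt5 did not pass (log2 -0.09 ± 0.12, edgeR adjusted p = 0.636). The anchoring collagen Col17a1 rose (log2 0.53 ± 0.11, edgeR adjusted p = 0.0142). Calls were lost without IMQ/Veh 1 or IMQ/GW3965 1 for Krt14 and without IMQ/Veh 1 for Col17a1. The 1 raised member became 0 without IMQ/Veh 1, 2 without IMQ/Troglitazone 1 and 4 without IMQ/Veh 3, and the 2 lowered 0 without IMQ/Veh 1 or IMQ/GW3965 1 and 1 without IMQ/Veh 3, IMQ/GW3965 3, IMQ/Troglitazone 1 or IMQ/Troglitazone 3, and 0 with the file tag as a term.

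Cytokine genes of the interleukin-23, interleukin-17 and interleukin-36 axis fell in 7 of 28 members tested and rose in 2. Among all genes 5.1% were lower and 5.65% higher, and nothing is read from the count of 2 raised, which is near that share. Il1b (ENSMUSG00000027398, chromosome 2, 129364570 to 129371139), the inflammasome cytokine, was at 114, 107 and 138 CPM in IMQ/Veh, 11.9, 12.1 and 24.7 in IMQ/GW3965 and 18.2, 13.1 and 1.44 in IMQ/Troglitazone (log2 -3.18 ± 0.51, edgeR adjusted p = 0.00605). Il17a (ENSMUSG00000025929, chromosome 1, 20730905 to 20734496), the cytokine that drives keratinocytes in psoriasis, was at 1.71, 3.42 and 0.577 CPM with vehicle, 0.136, 0.156 and 0.203 with GW3965 and 0.169, 0.533 and 0 with troglitazone (log2 -3.31 ± 0.69, edgeR adjusted p = 0.0202). This rests on few reads, 129 counts over the 3 IMQ/Veh and 24 over the 6 agonist libraries, and the call was lost without IMQ/Veh 1, IMQ/Veh 2 or IMQ/GW3965 1, and the log2 fold change was -2.54 without IMQ/Veh 2 and -3.98 without IMQ/Troglitazone 2. No UTX/Veh library had an Il17a count.

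Il19 (ENSMUSG00000016524, chromosome 1, 130932656 to 130940115) and Il24, cytokines of the interleukin-10 family that act on keratinocytes, were among the 8 named genes with the largest falls. Il19 was at 23.2, 56.3 and 32.3 CPM in IMQ/Veh, 0.0904, 5.92 and 3.45 in IMQ/GW3965 and 4.40, 9.02 and 0.205 in IMQ/Troglitazone (log2 -3.32 ± 0.82, edgeR adjusted p = 0.0275); its call was lost without IMQ/Veh 1, IMQ/Veh 2, IMQ/GW3965 3 or IMQ/Troglitazone 1. Il24 was at 1.45, 3.30 and 7.71 CPM with vehicle, 0.181, 0.884 and 0.135 with GW3965 and 0.508, 1.07 and 0 with troglitazone (log2 -3.17 ± 0.70, edgeR adjusted p = 0.0191), and its log2 fold change was -2.38 without IMQ/Veh 3 and -3.82 without IMQ/GW3965 2. The agonist libraries varied widely in Il19 but none reached the lowest IMQ/Veh value in either gene. This lack of overlap was a condition for being picked among the largest named falls. Csf3, the growth factor of neutrophils, fell (log2 -3.08 ± 0.79, edgeR adjusted p = 0.0389), and so did the receptor chains Il17ra (log2 -0.51 ± 0.09, edgeR adjusted p = 0.00741) and Il17rc (log2 -0.27 ± 0.08, edgeR adjusted p = 0.0464).

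Il17f was at 6.90, 14.9997 and 3.94 CPM in IMQ/Veh, 0.136, 0.832 and 2.97 in IMQ/GW3965 and 1.35, 3.78 and 0.123 in IMQ/Troglitazone. All agonist libraries lay below IMQ/Veh, and the gene just missed the threshold (log2 -2.57 ± 0.75, edgeR adjusted p = 0.0501), which it passed without IMQ/Veh 3, IMQ/GW3965 3 or IMQ/Troglitazone 2. Its log2 fold change was -1.88 without IMQ/Veh 2, -3.25 without IMQ/GW3965 3 and -3.18 without IMQ/Troglitazone 2. Il23a, which sustains Th17 cells, was at 1.297, 1.89 and 1.42 CPM with vehicle, 0.226, 0.312 and 0.946 with GW3965 and 0.720, 1.21 and 0.328 with troglitazone (log2 -1.38 ± 0.47, edgeR adjusted p = 0.0759). It did not pass either. Neither did Il22 (log2 -2.59 ± 0.78, edgeR adjusted p = 0.054), Il6 (log2 -2.54 ± 0.78, edgeR adjusted p = 0.0564) or the keratinocyte cytokine Il36g (log2 -0.40 ± 0.16, edgeR adjusted p = 0.118), in which agonist and IMQ/Veh values overlapped. Among the members that rose was Il22ra1, the keratinocyte receptor of interleukin-22 (log2 0.63 ± 0.12, edgeR adjusted p = 0.00957). It was at 22.4, 18.6 and 20.5 CPM with vehicle, 21.5, 29.6 and 25.4 with GW3965 and 38.3, 37.6 and 42.6 with troglitazone. Its GW3965 libraries thus overlapped IMQ/Veh, and GW3965 alone did not pass (log2 0.32, edgeR adjusted p = 0.153). The list median was -0.56, and the count of 7 lowered was 3 without IMQ/Veh 1, 4 without IMQ/Veh 2, IMQ/GW3965 1 or IMQ/Troglitazone 1 and 13 without IMQ/Veh 3. The count of 2 raised was 1 without IMQ/Veh 1 or IMQ/Veh 2, and 1 with the file tag as a term.

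Antimicrobial and acute-phase genes fell in 13 of 21 members tested, beside 5.1% of all genes, and none rose. S100a8 (ENSMUSG00000056054, chromosome 3, 90668978 to 90670035) and S100a9, the subunits of calprotectin, both fell. S100a8 was at 3359, 3542 and 1917 CPM in IMQ/Veh, 88.7, 473 and 697 in IMQ/GW3965 and 608, 474 and 125 in IMQ/Troglitazone (log2 -2.84 ± 0.59, edgeR adjusted p = 0.0154). S100a9 was at 6091, 6439.6 and 3721 CPM with vehicle, 154, 840.2 and 1264 with GW3965 and 1291, 1061 and 222 with troglitazone (log2 -2.75 ± 0.66, edgeR adjusted p = 0.0249). The highest agonist library was below the lowest IMQ/Veh library in both, although the agonist libraries varied widely, with IMQ/GW3965 1 and IMQ/Troglitazone 3 the lowest. UTX/Veh had 6.17, 1.09 and 2.95 CPM of S100a8.

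Stfa2, a stefin that blocks cathepsins and whose promoter is printed above, was at 178, 98.2 and 128 CPM in IMQ/Veh, 14.7, 30.7 and 35.5 in IMQ/GW3965 and 33.4, 23.5 and 12.97 in IMQ/Troglitazone (log2 -2.43 ± 0.34, edgeR adjusted p = 0.00379). Defb4, a beta-defensin, was at 28.8, 17.5 and 11.4 CPM with vehicle, 2.21, 1.82 and 3.92 with GW3965 and 5.42, 4.27 and 1.76 with troglitazone (log2 -2.61 ± 0.35, edgeR adjusted p = 0.00322). Stfa1 (log2 -2.32 ± 0.40, edgeR adjusted p = 0.0083), S100a7a (log2 -2.37 ± 0.51, edgeR adjusted p = 0.0181), Defb3 and Defb14 fell as well; the stefin genes are close relatives that share reads. Lcn2, which withholds iron from bacteria (log2 -1.26 ± 0.41, edgeR adjusted p = 0.0699), Saa1 (log2 -1.67 ± 0.63, edgeR adjusted p = 0.102) and Saa3 (log2 -1.79 ± 0.53, edgeR adjusted p = 0.0523) did not pass. The list median was -1.67. The count of 13 was 4 without IMQ/Veh 1; without IMQ/Veh 1 the call of S100a8 was lost, and that of S100a9 without IMQ/Veh 1, IMQ/Veh 2 or IMQ/GW3965 2.

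Neutrophil chemokine genes fell in 4 of 5 members tested, beside 5.1% of all genes. Cxcl5 (ENSMUSG00000029371, chromosome 5, 90759360 to 90761624) was at 7.16, 11.9 and 21.5 CPM in IMQ/Veh, 0.181, 2.18 and 0.676 in IMQ/GW3965 and 1.31, 2.13 and 0.0821 in IMQ/Troglitazone (log2 -3.64 ± 0.62, edgeR adjusted p = 0.00803), and the log2 fold change was -4.31 without IMQ/GW3965 2. Cxcl2 was at 57.5, 51.4 and 40.7 CPM with vehicle, 5.11, 3.33 and 14.3 with GW3965 and 7.62, 4.70 and 0.575 with troglitazone (log2 -3.14 ± 0.54, edgeR adjusted p = 0.00826), and Cxcl3 at 12.3, 18.8 and 10.8 CPM with vehicle, 1.63, 0.936 and 3.18 with GW3965 and 2.58, 0.970 and 0.246 with troglitazone (log2 -3.18 ± 0.48, edgeR adjusted p = 0.00487). All 3 encode ligands of CXCR2, the receptor that draws neutrophils out of blood, and in all 3 the agonist libraries lay below all IMQ/Veh libraries. For Cxcl5 and Cxcl3 this was a condition for being picked among the largest named falls. Ppbp fell (log2 -1.94 ± 0.37, edgeR adjusted p = 0.0114), and Cxcl1 did not pass (log2 -1.49 ± 0.46, edgeR adjusted p = 0.0565). In the 9 fits that each left out 1 library, 3 to 5 members fell.

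Neutrophil markers fell in 7 of 12 members tested and rose in 1, with a median of -1.13, beside 5.1% lower and 5.65% higher of all genes. The count of 1 raised is near that share, and nothing is read from it. Csf3r, the receptor of the neutrophil growth factor, was at 39.5, 31.7 and 38.5 CPM in IMQ/Veh, 4.79, 10.7 and 8.11 in IMQ/GW3965 and 16.1, 12.4 and 6.61 in IMQ/Troglitazone (log2 -1.93 ± 0.26, edgeR adjusted p = 0.00316). Trem1, an amplifier of myeloid activation, was at 9.18, 12.6 and 10.9 CPM with vehicle, 2.26, 2.44 and 3.78 with GW3965 and 2.45, 2.52 and 0.739 with troglitazone (log2 -2.24 ± 0.32, edgeR adjusted p = 0.004), and the lectin gene Clec4d at 15.1, 13.7 and 15.7 CPM with vehicle, 4.29, 5.56 and 6.35 with GW3965 and 6.31, 4.46 and 3.78 with troglitazone (log2 -1.54 ± 0.17, edgeR adjusted p = 0.00191). All 3 were lower in every agonist library. The member that rose, Il1r2 (log2 0.62 ± 0.17, edgeR adjusted p = 0.0393), encodes a decoy receptor for interleukin-1. The neutrophil genes Ly6g and Ngp were below the filter on low counts, and Cxcr2 did not pass (log2 -0.60 ± 0.21, edgeR adjusted p = 0.0849). The summed level was 208 to 237 CPM in IMQ/Veh, 128 to 152 in the agonist libraries and 84.5 to 91.2 in UTX/Veh. Leaving out 1 library gave 5 to 7 lowered members, and the 1 raised was 0 without IMQ/Veh 1, IMQ/Veh 2, IMQ/GW3965 1, IMQ/GW3965 2 or IMQ/Troglitazone 1, and 0 with the file tag as a term.

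**Figure D3:**
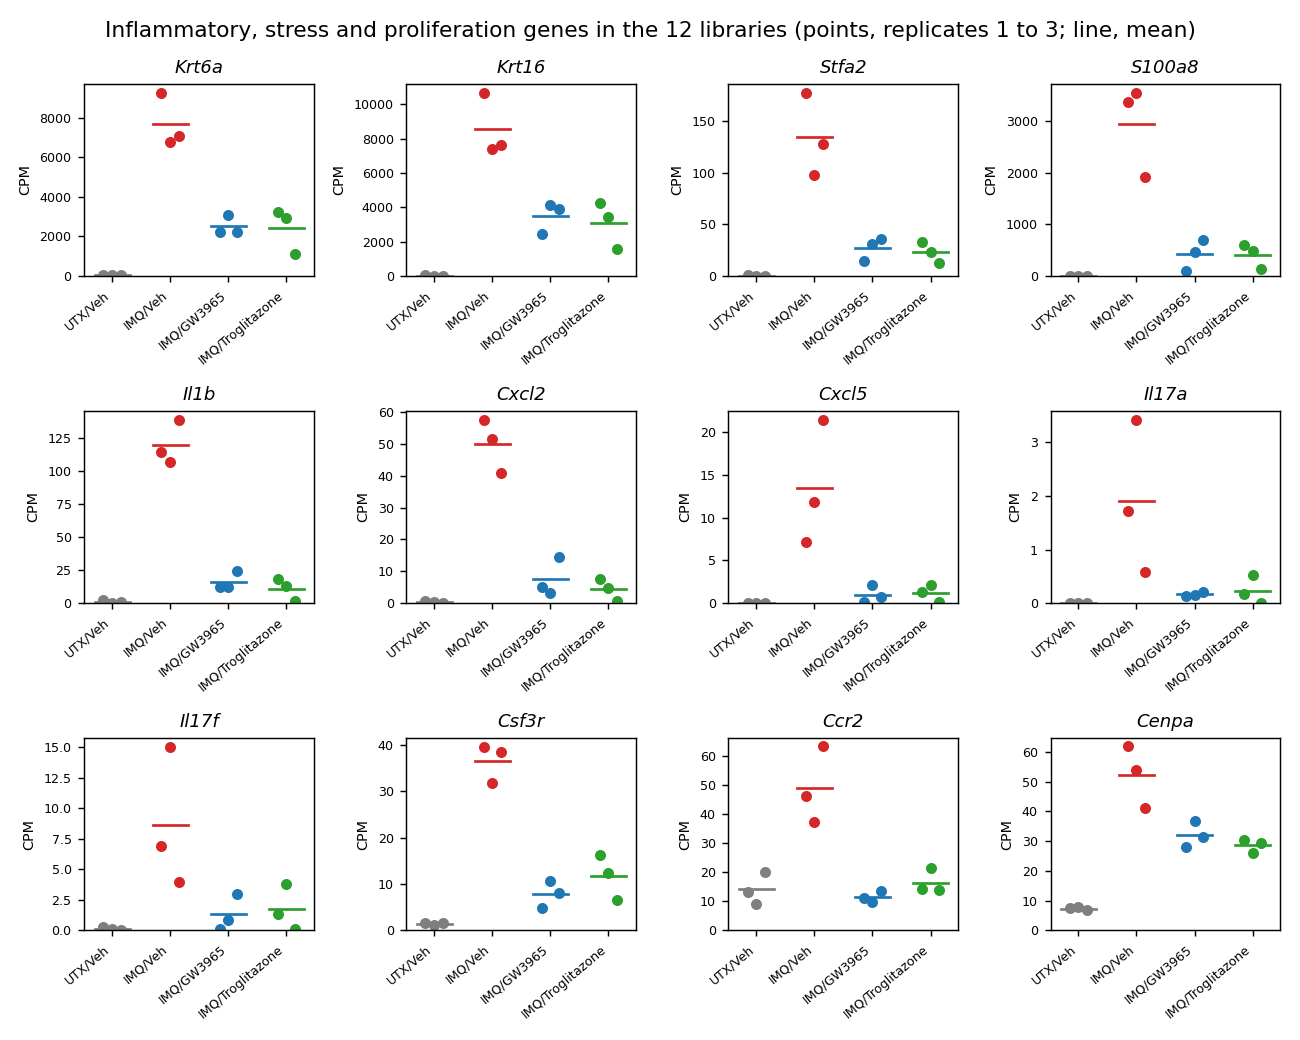
Level of 12 inflammatory, stress and proliferation genes (y axis, CPM, linear from 0) in the 12 libraries by group (x axis). Points are replicates 1 to 3 from left to right and lines are group means. In all 12 genes the 6 agonist libraries lie below the 3 IMQ/Veh libraries. For Il1b and Cxcl5 this was a condition for being picked among the largest named falls. Krt16 and Il17f did not pass the edgeR test.

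Among 19 monocyte and macrophage markers 2 fell, Ccr2 and Cd14, and none rose, beside 5.1% lower and 5.65% higher of all genes. The number that fell was 2 in every fit that left out 1 library, while 4 rose without IMQ/Veh 3 and 1 without IMQ/Troglitazone 2. Ccr2, the receptor that brings monocytes into tissue, was at 46.4, 37.4 and 63.6 CPM in IMQ/Veh, 11.1, 9.77 and 13.4 in IMQ/GW3965 and 14.2, 21.4 and 13.8 in IMQ/Troglitazone (log2 -1.84 ± 0.23, edgeR adjusted p = 0.00299). Cd14, the co-receptor for lipopolysaccharide, was at 37.4, 41.1 and 46.6 CPM with vehicle, 12.7, 14.5 and 16.8 with GW3965 and 15.3, 7.86 and 7.96 with troglitazone (log2 -1.76 ± 0.19, edgeR adjusted p = 0.00191). The general macrophage genes Lyz2 (log2 0.13), Cd68 (0.10) and Csf1r (0.11) did not pass.

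Of 23 T cell markers none changed at an edgeR adjusted p under 0.05, and the median was -0.29; Cd3e was at log2 0.07, Trbc2 at -0.41 and Cd4 at -0.34. At an unadjusted p under 0.05 there were 4 of the 23, while DESeq2 called 2 and limma-voom 1. Leaving out 1 library gave 1 higher without IMQ/Veh 3, 2 lower without IMQ/Veh 2 and 1 lower without IMQ/GW3965 3. Among 16 dendritic and Langerhans cell markers, Flt3 (log2 -1.18 ± 0.31, edgeR adjusted p = 0.0341) and Ciita, the switch of MHC class II genes (log2 -0.98 ± 0.22, edgeR adjusted p = 0.0221), fell. Cd207, the Langerhans cell lectin langerin, rose (log2 0.50 ± 0.13, edgeR adjusted p = 0.0293). Of all genes tested, 5.1% fell and 5.65% rose. The calls were lost without IMQ/Veh 1, IMQ/Veh 3, IMQ/GW3965 1, IMQ/GW3965 3, IMQ/Troglitazone 1, IMQ/Troglitazone 2 or IMQ/Troglitazone 3 for Flt3, without IMQ/Veh 1 or IMQ/GW3965 1 for Ciita and without IMQ/Veh 1, IMQ/Veh 2, IMQ/GW3965 2 or IMQ/Troglitazone 1 for Cd207. The 2 lowered of this list were 0 without IMQ/Veh 1 or IMQ/GW3965 1, 1 without IMQ/Veh 3, IMQ/GW3965 3, IMQ/Troglitazone 1 or IMQ/Troglitazone 3 and 5 without IMQ/Veh 2, and 1 with the file tag as a term. The 1 raised was 0 without IMQ/Veh 1, IMQ/Veh 2, IMQ/GW3965 2 or IMQ/Troglitazone 1 and 2 without IMQ/Veh 3, and 0 with the file tag as a term.

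Mast cell markers rose in 2 of 12 members, Ms4a2 (log2 0.94 ± 0.21, edgeR adjusted p = 0.0191) and Tpsab1 (log2 1.14 ± 0.28, edgeR adjusted p = 0.0288), with a median of 0.54. Of all genes tested, 5.65% rose. The count of 2 was 0 without IMQ/Veh 1 or IMQ/Veh 2, 1 without IMQ/GW3965 1 or IMQ/Troglitazone 3 and 10 without IMQ/Veh 3, and 1 with the file tag as a term, while the count lowered, 0 with all libraries, was 1 without IMQ/Veh 2 or IMQ/GW3965 2. In IMQ/Veh the summed mast cell level was 204, 137 and 347 CPM in replicates 1 to 3, of which replicate 3 was the highest, and the agonist libraries held 276 to 359.9.

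The title of the study names type 2 immunity, the arm led by interleukin-4 and interleukin-13. Il13, Il4 and Il5 were below the filter on low counts. Among 18 tested genes of this list 1 rose and 3 fell, beside 5.65% higher and 5.1% lower of all genes. Nothing is read from the count of 1 raised, which is near that share. Tslp, the epithelial alarm cytokine, was at 3.89, 3.22 and 4.51 CPM in IMQ/Veh, 10.5, 8.94 and 6.96 in IMQ/GW3965 and 5.88, 5.14 and 6.73 in IMQ/Troglitazone (log2 0.90 ± 0.20, edgeR adjusted p = 0.02). Il33, another alarm cytokine, was at 189, 158 and 193 CPM with vehicle, 82.9, 141 and 73.1 with GW3965 and 94.6, 102 and 51.0 with troglitazone (log2 -0.99 ± 0.23, edgeR adjusted p = 0.0233). Areg, a growth factor (log2 -1.29 ± 0.30, edgeR adjusted p = 0.0227), and the decoy receptor gene Il13ra2 (log2 -1.07 ± 0.30, edgeR adjusted p = 0.0453) fell with it. For Tslp, Il33 and Areg the agonist libraries did not overlap IMQ/Veh. Calls were lost without IMQ/Veh 1 or IMQ/Veh 2 for Tslp and without IMQ/Veh 1 or IMQ/GW3965 1 for Il33 and Areg. The count of 3 lowered was 0 without IMQ/Veh 1 or IMQ/GW3965 1, and 1 with the file tag as a term. The 1 raised was 0 without IMQ/Veh 1 or IMQ/Veh 2 and 3 without IMQ/Veh 3. The receptor gene Il4ra did not pass (log2 -0.68 ± 0.24, edgeR adjusted p = 0.0908). Of 14 genes of alternatively activated macrophages, Arg1 fell (log2 -1.97 ± 0.43, edgeR adjusted p = 0.0188), at 96.5, 19.7 and 104 CPM with vehicle, 12.2, 18.7 and 22.6 with GW3965 and 30.6, 10.5 and 18.1 with troglitazone; IMQ/Veh 2 lay within the agonist range, the call was lost without IMQ/Veh 1, and among the libraries tagged L001 its log2 fold change was 0.087. Of these 14 genes only Arg1 fell, where 5.1% of all genes did, and nothing is read from that count. None of these 14 genes rose with all libraries, and 2 did without IMQ/Veh 3.

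Cell cycle genes fell in 12 of 34 members tested, beside 5.1% of all genes, and none rose. All 34 had a negative log2 fold change, with a median of -0.41. Cenpa, the histone variant of centromeres, was at 62.0, 54.1 and 41.0 CPM in IMQ/Veh, 28.1, 36.6 and 31.5 in IMQ/GW3965 and 30.4, 26.1 and 29.4 in IMQ/Troglitazone (log2 -0.79 ± 0.12, edgeR adjusted p = 0.00549). Birc5 (log2 -0.78 ± 0.13, edgeR adjusted p = 0.00801) and Cenpe (log2 -0.70 ± 0.12, edgeR adjusted p = 0.00766) fell as well. The replication genes Mcm2 to Mcm7 on the list and Mki67 (log2 -0.43 ± 0.14, edgeR adjusted p = 0.0737) did not pass. The count of 12 was 3 without IMQ/Veh 1, 4 without IMQ/Veh 2, 5 without IMQ/GW3965 1 and 26 without IMQ/Veh 3. In UTX/Veh, Cenpa was at 7.35, 7.69 and 6.79 CPM.

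Glycolysis and hypoxia genes fell in 7 of 21 members, beside 5.1% of all genes, with a median of -0.46 and none higher. Pgk1 was at 611, 507 and 476 CPM in IMQ/Veh, 347, 374 and 412 in IMQ/GW3965 and 342, 337 and 284 in IMQ/Troglitazone (log2 -0.61 ± 0.10, edgeR adjusted p = 0.00634). Ldha, which makes lactate (log2 -0.52 ± 0.10, edgeR adjusted p = 0.0116), the glucose transporter gene Slc2a1 (log2 -0.65 ± 0.13, edgeR adjusted p = 0.0121) and Hif1a (-0.57) fell too. In these 4 genes every agonist library lay below every IMQ/Veh library. The count of 7 was 1 without IMQ/Veh 1, and 4 with the file tag as a term, and 1 rose without IMQ/Veh 3; the calls of Ldha and Slc2a1 were lost without IMQ/Veh 1. Of 29 interferon-stimulated genes none rose and 1 fell, a smaller share than the 5.1% of all genes. The count lowered was 0 without IMQ/Veh 1, IMQ/Veh 3, IMQ/GW3965 1, IMQ/GW3965 2 or IMQ/Troglitazone 3, 3 without IMQ/Troglitazone 2 and 4 without IMQ/Veh 2, and the count raised 2 without IMQ/Veh 3. The 1 was Oas2 (log2 -1.45 ± 0.36, edgeR adjusted p = 0.0288), whose call was lost without IMQ/Veh 1, IMQ/Veh 3, IMQ/GW3965 1, IMQ/GW3965 2 or IMQ/Troglitazone 3 and whose log2 fold change was -0.68 without IMQ/Veh 3. The median of the list was -0.79. The largest IMQ/Veh value of Oas2, 4.72, 3.74 and 13.1 CPM, was in replicate 3.

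Several of the named genes with the largest changes belong to none of the lists above. Fmo2 (ENSMUSG00000040170, chromosome 1, 162874317 to 162898726), a flavin monooxygenase that oxidises drugs, was at 5.71, 11.8 and 9.71 CPM in IMQ/Veh, 71.7, 52.2 and 40.2 in IMQ/GW3965 and 46.3, 38.3 and 109 in IMQ/Troglitazone (log2 2.71 ± 0.38, edgeR adjusted p = 0.00348). Galnt15 (ENSMUSG00000021903, chromosome 14, 32028989 to 32062197), which starts sugar chains on mucin-type proteins, was at 15.5, 32.4 and 31.4 CPM with vehicle, 243, 149.7 and 88.1 with GW3965 and 154, 95.4 and 401 with troglitazone (log2 2.82 ± 0.50, edgeR adjusted p = 0.00872). In both the lowest agonist value was far above the highest IMQ/Veh value. That the groups did not overlap was a condition for being picked among the largest named changes.

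Cldn2, a pore-forming tight junction protein, was at 0.259, 0.925 and 0.840 CPM in IMQ/Veh, 5.29, 2.44 and 2.703 in IMQ/GW3965 and 3.81, 2.72 and 9.44 in IMQ/Troglitazone (log2 2.65 ± 0.51, edgeR adjusted p = 0.0117). Nell2, a secreted protein (log2 2.42 ± 0.42, edgeR adjusted p = 0.00826), Ibsp, a protein of bone matrix (log2 3.37 ± 0.81, edgeR adjusted p = 0.0259), and Doc2b, a calcium sensor of secretion (log2 2.56 ± 0.68, edgeR adjusted p = 0.0368), complete the largest named rises with Flg2 and Thrsp. Ibsp and Doc2b rest on 11 and 19 counts over the 3 IMQ/Veh libraries. The calls were lost without IMQ/Veh 1 for Cldn2, IMQ/Veh 1, IMQ/Veh 2 or IMQ/GW3965 1 for Ibsp and IMQ/Veh 1, IMQ/Veh 2, IMQ/GW3965 1 or IMQ/GW3965 2 for Doc2b, and the log2 fold change was 2.76 without IMQ/Troglitazone 3 for Ibsp and 1.97 without IMQ/Troglitazone 3 for Doc2b.

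Among the named genes the largest falls were of Slc26a4 and Acod1. Slc26a4 (ENSMUSG00000020651, chromosome 12, 31519827 to 31559969), the anion exchanger pendrin, was at 2.23, 13.4 and 3.15 CPM in IMQ/Veh, 0, 0.572 and 0.743 in IMQ/GW3965 and 0.423, 0.921 and 0 in IMQ/Troglitazone (log2 -3.89 ± 0.82, edgeR adjusted p = 0.0165); the call was lost without IMQ/Veh 2, where the log2 fold change was -2.64. Acod1 (ENSMUSG00000022126, chromosome 14, 103046977 to 103056573), the enzyme with which activated macrophages make itaconate, was at 12.1, 22.1 and 12.6 CPM with vehicle, 1.08, 0.468 and 2.64 with GW3965 and 2.03, 0.339 and 0.123 with troglitazone (log2 -3.87 ± 0.59, edgeR adjusted p = 0.00524), and its log2 fold change was -4.81 without IMQ/Troglitazone 1. In both every agonist library lay below every IMQ/Veh library, which was a condition for being picked among the largest named falls. Il19, Il24, Il1b, Cxcl3, Cxcl5 and Sprr2k, described above, complete the largest falls. Of 24 genes of drug metabolism 3 rose and 2 fell, of 20 immediate early and heat shock genes 2 rose and 2 fell, and of 17 clock genes 2 rose and 1 fell, beside 5.65% and 5.1% of all genes, and nothing is read from these counts. The raised genes of drug metabolism were 5 without IMQ/Troglitazone 2 and 8 without IMQ/Veh 3, and the lowered 1 without IMQ/Veh 1 and 4 without IMQ/Veh 3. For immediate early and heat shock genes the raised were 1 without IMQ/Veh 1, and the lowered 0 without IMQ/Veh 1, 1 without IMQ/GW3965 1 and 4 without IMQ/Veh 3 or IMQ/Troglitazone 2. For clock genes the raised were 0 without IMQ/Veh 1, IMQ/GW3965 1 or IMQ/Troglitazone 3 and 1 without IMQ/GW3965 2 or IMQ/Troglitazone 1, the lowered 0 without IMQ/Veh 1, IMQ/Veh 3, IMQ/GW3965 1, IMQ/GW3965 2, IMQ/GW3965 3, IMQ/Troglitazone 1 or IMQ/Troglitazone 3, and both were 0 with the file tag as a term. Fmo2 was among the 3 raised genes of drug metabolism. In the same list, Gsta4 (log2 -1.73 ± 0.20, edgeR adjusted p = 0.00205) fell and Gstm1 (log2 0.88 ± 0.13, edgeR adjusted p = 0.004) rose in all 6 libraries against all 3. Gsta4 and Gstm1 are glutathione transferases.

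Markers of the deeper tissues of the ear differed within IMQ/Veh, and replicate 3 had the highest summed level of muscle, cartilage, adipocyte, fibroblast and endothelial markers. Skeletal muscle markers rose in 6 of 22 members tested, beside 5.65% of all genes, and all 22 had a positive log2 fold change, with a median of 0.99. Their summed level was 2415, 2719 and 9157 CPM in IMQ/Veh, 14149.7, 10906 and 10165 in IMQ/GW3965 and 9145, 7501 and 11080.0 in IMQ/Troglitazone, and 17952 to 20549.5 in UTX/Veh. IMQ/Veh 3 lay within the agonist range and IMQ/Veh 1 and 2 well below it. Tcap, of the muscle Z-disc, was at 25.4, 52.7 and 115 CPM with vehicle, 368, 260.5 and 223 with GW3965 and 177, 123 and 272 with troglitazone (log2 1.85 ± 0.41, edgeR adjusted p = 0.02), and its log2 fold change was 2.57 without IMQ/Veh 3. The count of 6 was 0 without IMQ/Veh 1 or IMQ/Veh 2, 1 without IMQ/GW3965 1, 2 without IMQ/GW3965 2, IMQ/Troglitazone 1 or IMQ/Troglitazone 3, 3 without IMQ/GW3965 3 and 22 without IMQ/Veh 3, and 2 with the file tag as a term.

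Of all genes tested 5.65% were higher, and the counts of the next 3 lists are to be set beside that share. Adipocyte markers rose in 1 of 14 members, Plin4 (log2 1.03 ± 0.25, edgeR adjusted p = 0.0273), and their median was 0.98. That count is near the share of all genes, and nothing is read from it. The summed adipocyte level was 414, 240.1 and 850.1 CPM in IMQ/Veh, 747 to 1215 in the agonist libraries and 898 to 1569 in UTX/Veh. Cartilage markers rose in 2 of 17, Cytl1 (log2 1.59 ± 0.34, edgeR adjusted p = 0.0176) and Chad (log2 1.42 ± 0.37, edgeR adjusted p = 0.0352), with a median of -0.03 and sums of 490.0, 774 and 1422 CPM in IMQ/Veh and 1267 to 2919 in the agonist libraries. Endothelial markers rose in 3 of 17, the lymphatic genes Lyve1 (log2 0.91 ± 0.19, edgeR adjusted p = 0.0162) and Flt4 (log2 0.90 ± 0.21, edgeR adjusted p = 0.0237) and the tight junction gene Cldn5 (log2 1.01 ± 0.28, edgeR adjusted p = 0.0445). The counts of raised members were 0 without IMQ/Veh 1, 1 without IMQ/Veh 2, IMQ/GW3965 1, IMQ/Troglitazone 1 or IMQ/Troglitazone 3 and 8 without IMQ/Veh 3 for cartilage and 0 without IMQ/Veh 1, 1 without IMQ/Veh 2 or IMQ/GW3965 1 and 11 without IMQ/Veh 3 for endothelium. For adipocytes the count was 0 without IMQ/Veh 1, IMQ/GW3965 1 or IMQ/Troglitazone 3 and 12 without IMQ/Veh 3. With the file tag as a term, 1 cartilage and 0 adipocyte markers rose, and 1 cartilage marker fell without IMQ/Veh 1. The log2 fold change of Chad was 2.18 without IMQ/Veh 3.

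Of 21 fibroblast and collagen genes none changed at an edgeR adjusted p under 0.05 with all libraries, beside 10.7% of all genes. Their median was -0.39. Their sum was 6740.5, 3861 and 15138 CPM in IMQ/Veh and 5044 to 7273 in the agonist libraries. Without IMQ/Veh 3, 8 of them rose, and without IMQ/Veh 2, 3 fell. Of 11 hair follicle genes tested by edgeR none was called either. At an unadjusted p under 0.05 there were 3 genes of each of these lists, and DESeq2 called 2 and limma-voom 1 of the fibroblast genes and none of the hair follicle genes. In the erythrocyte list Hbb-bt fell (log2 -0.94 ± 0.27, edgeR adjusted p = 0.0482), with a log2 fold change of -0.21 for GW3965 and -1.68 for troglitazone. Its call held in 2 of the 9 fits that left out 1 library and was lost with the file tag as a term (edgeR adjusted p = 0.117). The count of this list was 0 without IMQ/Veh 1, IMQ/Veh 3, IMQ/GW3965 1, IMQ/GW3965 2, IMQ/GW3965 3, IMQ/Troglitazone 1 or IMQ/Troglitazone 3 and 4 without IMQ/Veh 2. The part of these tissues in the rise of PPAR, fatty acid and sebaceous gland genes was not tested. Without hemoglobin, muscle and mitochondrial genes, 1797 genes changed instead of 1841.

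**Figure D4:**
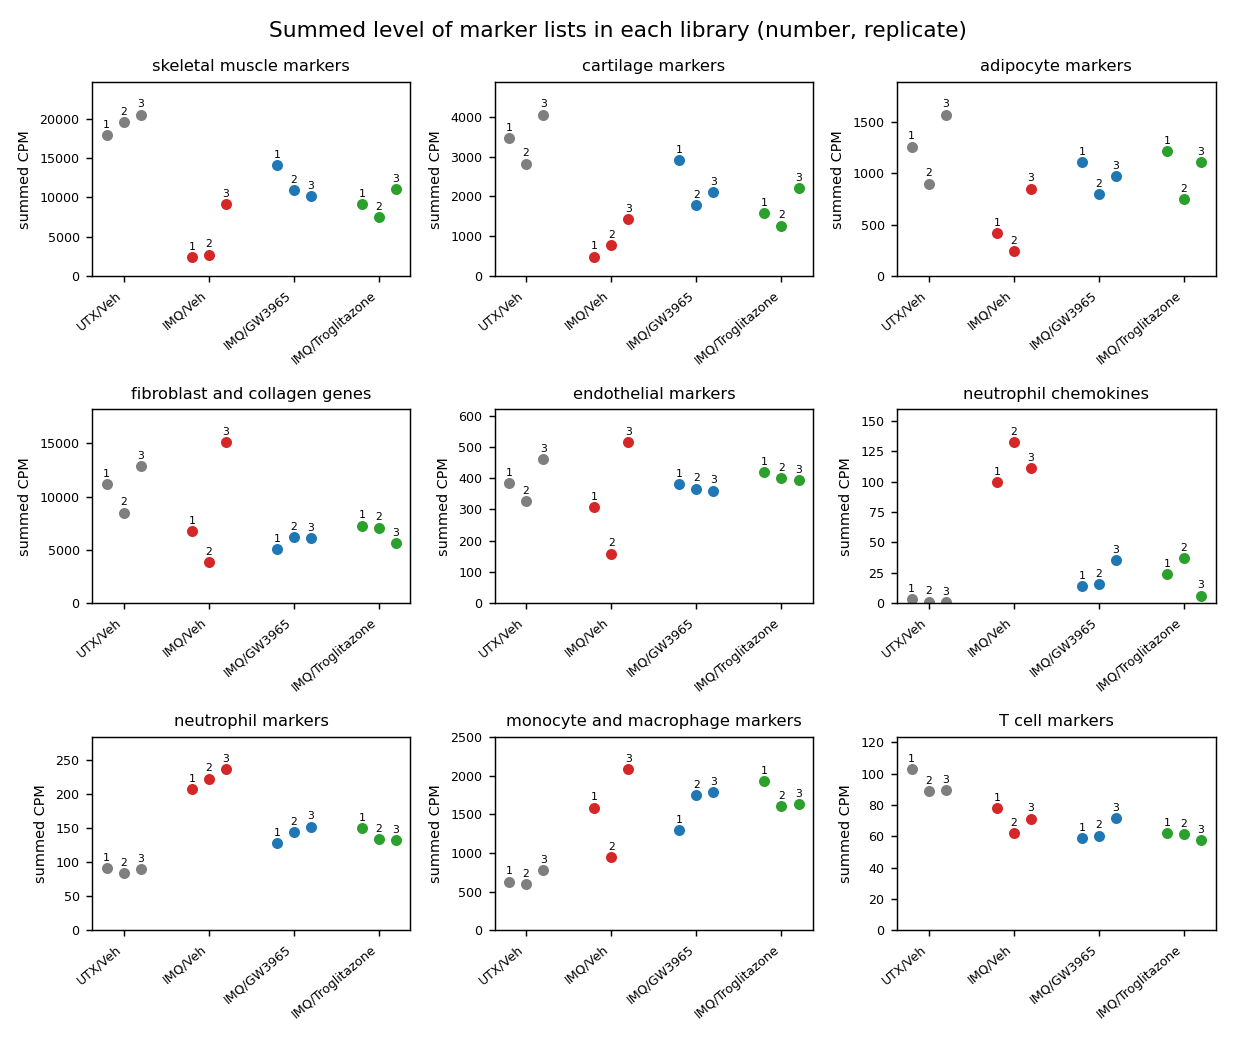
Summed CPM (y axis, linear from 0) of 9 marker lists in the 12 libraries by group (x axis), each point 1 library with its replicate number. IMQ/Veh 3 is the highest IMQ/Veh library for muscle, cartilage, adipocyte, fibroblast, endothelial and macrophage markers, while the neutrophil chemokine and neutrophil marker sums of all 6 agonist libraries lie below those of all 3 IMQ/Veh libraries.

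Whether the 2 agonists differed from each other was tested in the same fit by the difference GW3965 minus troglitazone. IMQ/Veh has no weight in that difference, but its libraries enter the scaling and the estimate of spread. The difference was called for 319 of 17130 genes (1.86%), of which 41 were among the 1841 with a pooled effect. Against IMQ/Veh, which both share, GW3965 alone changed 1129 genes (6.59%) and troglitazone alone 1600 (9.34%). A difference that misses the threshold does not show that the agonists act alike, and their doses differed.

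Higher with GW3965 than with troglitazone were Srebf1 (difference log2 0.66 ± 0.14, edgeR adjusted p = 0.0436), Apoe (0.50 ± 0.11, edgeR adjusted p = 0.0492) and the elongase gene Elovl5. Elovl5 was at 48.0, 43.8 and 54.6 CPM in IMQ/Veh, 92.4, 73.7 and 78.9 in IMQ/GW3965 and 47.0, 46.6 and 43.4 in IMQ/Troglitazone (difference 0.84 ± 0.10, edgeR adjusted p = 0.0234), and its troglitazone libraries overlapped the IMQ/Veh libraries. Rps21, of the ribosome (difference 0.54 ± 0.07), Atp5e, of the ATP synthase (0.61 ± 0.08), and Ndufa3, of respiratory complex I (0.60 ± 0.08), were lower with troglitazone than with GW3965 (edgeR adjusted p = 0.0234 for each difference). Against IMQ/Veh, Rps21 was at log2 -0.01 with GW3965 and -0.55 with troglitazone.

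Higher with troglitazone were Il22ra1 (difference log2 -0.63 ± 0.13, edgeR adjusted p = 0.0388), the vesicle gene Lyst (-0.52 ± 0.08), the chromatin gene Kmt2e (-0.54 ± 0.09), Plppr3 (-0.97 ± 0.18) and Slc5a7. Slc5a7, the choline transporter of nerve endings, was at 0.104, 1.21 and 0.315 CPM in IMQ/Veh, 1.49, 1.09 and 0.405 in IMQ/GW3965 and 7.11, 4.51 and 9.40 in IMQ/Troglitazone (difference -2.76 ± 0.56, edgeR adjusted p = 0.0388). It stood at 0.0786, 0.0836 and 0.0427 CPM in UTX/Veh, and its pooled log2 fold change of 2.22 was 3.66 without IMQ/Veh 2. The lowest troglitazone library was above the highest GW3965 library for Slc5a7, Il22ra1 and Lyst.

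For 5 inflammatory genes the differences were smaller than 2 of their errors. The difference was 0.05 ± 0.35 for Krt6a, 0.06 ± 0.70 for S100a8, 0.56 ± 0.64 for Il1b, 0.80 ± 0.70 for Cxcl2 and -0.46 ± 1.15 for Il17a, with edgeR adjusted p from 0.635 to 0.982. For S100a8, Il1b, Cxcl2 and Il17a a difference of 1 log2 unit is itself smaller than 2 errors, so it would not have been detectable here. The count of 319 depended on single libraries. It was 0 without IMQ/GW3965 1, IMQ/GW3965 3, IMQ/Troglitazone 2 or IMQ/Troglitazone 3, 51 without IMQ/GW3965 2, 73 without IMQ/Troglitazone 1, 74 without IMQ/Veh 1, 692 without IMQ/Veh 3, and 1 in a fit of the 9 imiquimod libraries alone. At an unadjusted p under 0.05 the difference gave 2745 genes with all libraries and 1986 to 2617 in the 4 fits with a count of 0, and DESeq2 called 942 with all libraries.

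**Figure D5:**
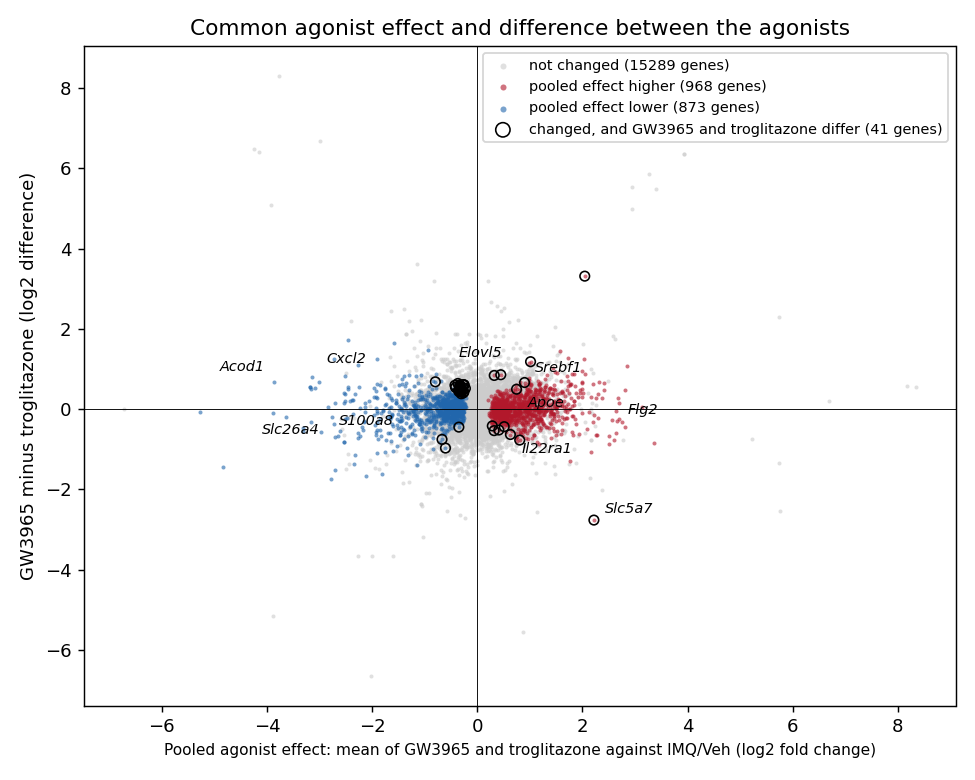
Pooled agonist effect (x axis, log2 fold change against IMQ/Veh) and difference GW3965 minus troglitazone (y axis, log2) of the 17130 genes tested. Red and blue points are the 968 higher and 873 lower genes, grey the rest, and black rings the 41 changed genes in which the agonists also differ. The colours follow the test of the x-axis value, and Scd3 (above) and Slc5a7 (below) are the ringed genes farthest from 0 on the y axis.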

How the data were processed

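Per the labels' protocols, ear skin RNA (12 libraries) came from mirVana extraction with DNase digestion, and libraries from the TruSeq stranded mRNA kit. RSEM 1.3.3, STAR 2.7.3a, Trim Galore, FastQC and the build GRCm38/mm10 are listed, without their settings, in the submitters' processing notes. The authors deposited RSEM expected counts and TPM per gene, per the file headers; the strand setting is not given in the sources used here. RSEM divides reads among near-identical copies (Sprr2, Lce1, stefin and Scd genes), whose single values are uncertain.

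Rounding made the expected counts whole; TPM was not used. Gene names came from GENCODE M21 for 52083 of 55416 IDs. Genes were filtered with edgeR's filterByExpr, scaled by TMM and fitted for all 12 libraries in 1 quasi-likelihood model with group as the only term (R 4.3.3, edgeR 4.0.16; 8 residual degrees of freedom). Errors of log2 fold changes are standard errors, and p-values were Benjamini-Hochberg adjusted over 17130 genes, with calls under 0.05. CPM used the scaled library sizes. The code was tested on simulated data.

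Named genes were the 8 in each direction with the largest fold, at least 1 CPM and groups that did not overlap, up to 3 changed members of each list by adjusted p, a fixed list, and 4 in each direction that differed between agonists; others are given as list members. Some genes that these rules name are not reported here. The gene lists and comparisons were chosen with earlier results of these data known. Alternatives were DESeq2 1.42.0, limma 3.58.1 (voom), scaling by RLE or by upper quartile, other filters, terms for file tag and replicate number, the 9 imiquimod libraries alone, leaving out genes and leaving out each library.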

Additional observations from a re-analysis of the deposited data

Results flagged for a closer look

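In 5 of 123 named genes, 1 of the 6 agonist libraries lay far from the other 5, with a gap over range above Dixon's 95% critical value. For 6 libraries of a single group, chance alone gives about 1 in 20. Here the 6 came from 2 agonist groups, and the 123 genes were partly chosen by their values. That rate therefore cannot be set against the 5 found, and chance was not excluded. Ibsp was at 5.21 CPM in IMQ/Troglitazone 3, and the next library was at 1.58. Pdk4 was at 85.4 CPM in IMQ/Troglitazone 3, and the next library was at 25.9. Plin2 was at 308 CPM in IMQ/GW3965 1, and the next library was at 248. Dhcr7 was lowest in IMQ/Troglitazone 2, at 169 CPM against 185 in the next. Cd4 was lowest in IMQ/GW3965 3, at 3.92 CPM against 5.42. What sets these libraries apart was not tested.

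The edgeR test of GW3965 minus troglitazone was passed by 11 named genes. The log2 differences were 0.50 for Apoe, 0.66 for Srebf1, 0.84 for Elovl5, 0.54 for Rps21, 0.61 for Atp5e and 0.60 for Ndufa3, higher with GW3965. They were -0.63 for Il22ra1, -0.52 for Lyst, -0.54 for Kmt2e, -0.97 for Plppr3 and -2.76 for Slc5a7, higher with troglitazone. The 2 groups are labelled with different agonists, solvent being the same, and their doses differed.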

How the results depend on the processing

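Against 1841 changed genes (968 higher, 873 lower) and 319 that differed between agonists, DESeq2 gave 2896 (1516 and 1380) and 942. The 9 imiquimod libraries alone gave 780 (423 and 357) and 1. A term for the file tag L001 or L009 gave 1035 (562 and 473), and together with the replicate block 560 lower genes and 26 differences. Testing nearly all genes gave 140 differences. Without IMQ/Veh 3 and IMQ/GW3965 3 together there were 4399 (2551 and 1848) and 0, the latter with 2623 genes at an unadjusted p under 0.05. Leaving out each library in turn gave 328 to 4636 changed, 188 to 2552 higher and 140 to 2084 lower genes, and 0 to 692 differences. Fits chosen after seeing the data gave 1611 higher genes within L001, and 25 (12 and 13) within L009; within L001 the log2 fold change of Arg1 was 0.087 and that of Hbb-bt 0.22, against falls with all libraries, and the cause was not tested. RLE and upper-quartile scaling, limma-voom and the stricter filter stayed within 1.5 times of all 4 counts. The replicate number as a block gave 2113 changed genes (1158 higher, 955 lower) and 131 differences, but the numbers share no stated animal or day, and deviations of same-numbered libraries correlated between -0.22 and 0.22, so they were not taken as pairs. Of the 101 named genes called, 42 were called in all 9 fits that left out 1 library, 58 were lost without IMQ/Veh 1, and 26 with the file tag as a term. The vehicle group had 3 libraries, of which replicate 3 stood apart. The lowest and highest counts of changed genes came without IMQ/Veh 1 (328) and without IMQ/Veh 3 (4636). Depth was at least 18242074 counts per library, and its part in the precision was not tested.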

Other observations

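Further genes with a pooled effect were picked after their values were seen and are given as values only, with edgeR adjusted p-values. They stand for no group. Gjb2, a gap junction gene, was at 1202, 868 and 941 CPM in IMQ/Veh, 238, 493 and 456 in IMQ/GW3965 and 480.2, 469.8 and 287 in IMQ/Troglitazone (log2 -1.31 ± 0.23, edgeR adjusted p = 0.0083), and its relative Gjb6 fell as well (log2 -1.16 ± 0.18, edgeR adjusted p = 0.00549). Gjb5 was at 35.4, 41.9 and 33.7 CPM in IMQ/Veh, 83.3, 82.7 and 74.3 in IMQ/GW3965 and 60.4, 50.6 and 74.9 in IMQ/Troglitazone and rose (log2 0.93 ± 0.12, edgeR adjusted p = 0.00316). The leucine zipper gene Tsc22d3 (log2 1.85 ± 0.38, edgeR adjusted p = 0.0149), the co-chaperone gene Fkbp5 (log2 1.62 ± 0.33, edgeR adjusted p = 0.0142) and the transcription factor genes Klf15 (log2 1.70 ± 0.38, edgeR adjusted p = 0.0206) and Zbtb16 (log2 1.77 ± 0.42, edgeR adjusted p = 0.0252) rose. The kinase gene Sgk1 did not pass (log2 0.30 ± 0.17, edgeR adjusted p = 0.269).

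The inflammasome sensor gene Nlrp3 fell (log2 -2.51 ± 0.27, edgeR adjusted p = 0.00188), at 9.49, 11.9 and 10.02 CPM in IMQ/Veh, 1.58, 1.25 and 2.30 in IMQ/GW3965 and 3.05, 1.89 and 1.07 in IMQ/Troglitazone. The cytokine gene Osm (log2 -3.02 ± 0.44, edgeR adjusted p = 0.00425) and the prostaglandin synthase gene Ptgs2 (log2 -1.92 ± 0.28, edgeR adjusted p = 0.00425) fell as well. Tnf did not pass (log2 -0.88 ± 0.35, edgeR adjusted p = 0.117). Cxcl13, the chemokine that attracts B cells, rose, at 12.97, 6.35 and 8.76 CPM in IMQ/Veh, 45.9, 63.8 and 46.6 in IMQ/GW3965 and 49.4, 27.9 and 44.0 in IMQ/Troglitazone (log2 2.30 ± 0.26, edgeR adjusted p = 0.00193). The growth factor gene Hbegf fell (log2 -1.17 ± 0.17, edgeR adjusted p = 0.00471), and Ereg, of the same family, rose (log2 0.68 ± 0.19, edgeR adjusted p = 0.0455). Whether skeletal muscle markers, of which 6 of 22 also rose, have a part in these values was not tested.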
